A study of Danio rerio with 12 samples.

Results

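A group of 10 zebrafish genes of the oxidative stress and glutathione response was examined in whole larvae: gstp1, gclc, gclm, hmox1a, nqo1, prdx1, srxn1, sod1, sod2 and cat. They were listed by name, as well-known genes of this response, with earlier results of these data known. The 10 symbols corresponded to 11 of the 32520 gene identifiers in the count tables, and all 11 passed the filter on low counts. Zebrafish gstp1 was found as gstp1.2 (ENSDARG00000104068) and hmox1a under the human-style name HMOX1 (ENSDARG00000027529). The symbol prdx1 stood at 2 identifiers, written prdx1 (ENSDARG00000058734) and PRDX1 (ENSDARG00000025350). The gene tables used for naming did not settle which of them is the zebrafish orthologue, so both are described and kept apart by their spelling. The symbol prdx2, sought among wider genes of the response, matched no identifier. Whether the PRDX1 identifier holds another peroxiredoxin gene was therefore not settled.

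The study compared elmo2-/- with elmo2+/+ zebrafish larvae at 120 hours post fertilization (hpf), with 6 RNA samples per genotype and 30 pooled whole larvae per sample. The elmo2-/- larvae carry a CRISPR/Cas9 frameshift deletion of elmo2 from a single line, and both genotypes carry the Tg(fli1:EGFP) transgene, which drives EGFP in endothelial cells. The methods name littermates as controls of knockout animals in the section on adult fish, and do not repeat this for the RNA samples. Larvae were kept with or without the pigment inhibitor PTU, and which of these applied to the RNA samples is not given in the sources used here. Library numbers were 1 to 6 in elmo2+/+, 13 to 16 in elmo2-/- replicates 1 to 4, and 7 and 8 in elmo2-/- replicates 5 and 6, so any effect of library number cannot be told apart from that of genotype. Nothing states that the samples came from separate clutches, so p-values measure the spread between these pools of larvae, which may in part be technical.

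Cells that meet oxidants or reactive electrophiles raise a common set of protective enzymes. The transcription factor Nrf2 is normally held and degraded through Keap1, and when Keap1 is modified, Nrf2 pairs with a small Maf protein at antioxidant response elements and activates genes for glutathione synthesis, conjugation, quinone reduction, heme breakdown and peroxide removal. In zebrafish larvae gstp1 is a widely used readout of Nrf2 activity. Superoxide dismutases and catalase form an older, more constantly expressed layer that turns superoxide into hydrogen peroxide and hydrogen peroxide into water.

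Total estimated counts lay between 20116203 and 20939679 per sample, so depth was nearly equal. Levels of the targeted gene elmo2 did not overlap, with 31.4 to 51.6 CPM (counts scaled to library size) in elmo2-/- samples against 56.3 to 92.4 CPM in the controls, and its log2 fold change was -0.93 (SE 0.15, adjusted p = 0.642 with edgeR's quasi-likelihood test and Benjamini-Hochberg adjustment over 22259 genes). The adjusted p of elmo2 was 0.000123 with DESeq2. Across the transcriptome 0% of the 22259 genes passed an adjusted p of 0.05 in edgeR, 4.68% had an unadjusted p under 0.05, and 0.198% had CPM values that did not overlap between the genotypes. All 8 fixed marker lists (liver, macrophage and neutrophil, erythroid, intestine, muscle, skin, retina and lens, neuron) gave a signal in these whole larvae, and of the macrophage and neutrophil list mpeg1.1 and mfap4 identifiers were at 0 in some samples. The muscle list rested on 2 of its 5 symbols, ckma and acta1b, the latter matched under the name ACTC1.

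Among the members, levels spanned a wide range and followed nearly the same order in every pool. On the TPM scale, which corrects for transcript length and library size, PRDX1 was highest with a mean of 441 TPM (SD 55.7 over the 12 samples), followed by gstp1 with 364 TPM (SD 84.5). These 2 genes overlapped in range, and PRDX1 was above gstp1 in 11 of 12 samples. The cytosolic superoxide dismutase sod1 followed at 158 TPM (SD 21.9), the mitochondrial sod2 at 79.6 TPM (SD 7.90) and catalase at 52.2 TPM (SD 12.1). From gstp1 down to gclm each gene exceeded the next one in all 12 samples.

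The lower part of the order held nqo1 with a mean of 36.7 TPM (SD 7.23), prdx1 with 30.0 TPM (SD 7.93), and the 2 subunits of glutamate-cysteine ligase. The catalytic subunit gclc averaged 16.3 TPM (SD 2.61) and the modifier subunit gclm 8.40 TPM (SD 1.16), without overlap between them. At the bottom, hmox1a averaged 7.19 TPM (SD 4.47) and srxn1 5.83 TPM (SD 1.87). Neighbours among these last genes did not separate: gclm was above hmox1a in 9 of 12 samples, and hmox1a above srxn1 in 9 of 12.

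**Figure D1:**
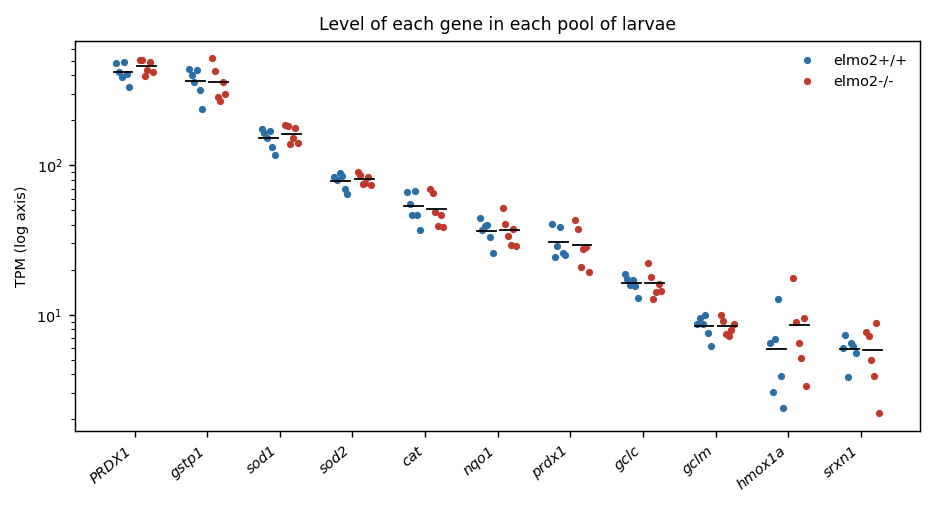
TPM (log axis) of the 11 identifiers in each of the 6 elmo2+/+ (blue) and 6 elmo2-/- (red) pools, ordered by mean level, with the mean of each genotype as a black line. Levels run from PRDX1 (mean 441 TPM) to srxn1 (mean 5.83 TPM), and the genotypes overlap in every gene.

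Loss of elmo2 went with no detectable change in any member at this number of pools. Of the 11 identifiers, 0 passed an adjusted p of 0.05, 0 had an unadjusted p under 0.05, against 4.68% of all genes, and 0 separated the genotypes without overlap, against 0.198% of all genes. The adjusted p from edgeR was 0.9997 for each member. The log2 fold change of elmo2-/- over elmo2+/+ was above 0 in 7 and below 0 in 4 of the 11, against 49.8% of all genes above 0. Its median over the members was 0.031, against -0.00061 over all genes tested. The intervals allow small changes: for gclc, gclm, sod1, sod2 and PRDX1 the 95% interval of the fold change stayed between 0.864-fold and 1.28-fold, while for hmox1a it ran from 0.770-fold to 2.64-fold.

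Glutathione synthesis is limited by glutamate-cysteine ligase, whose catalytic subunit is Gclc and whose modifier subunit Gclm raises its efficiency. In elmo2-/- samples gclc ranged from 33.7 CPM over a median of 38.3 to 48.0 CPM, and in elmo2+/+ samples from 31.4 over 39.1 to 44.2 CPM. The genotypes overlapped almost fully, with elmo2-/- replicate 1 and elmo2+/+ replicate 4 at the upper end and elmo2+/+ replicate 6 at the lower end. The fitted log2 fold change of gclc was 0.031 (SE 0.094, 95% interval -0.17 to 0.23). For gclm the elmo2-/- samples ran from 10.7 over 11.6 to 12.8 CPM and the elmo2+/+ samples from 8.56 over 11.4 to 14.6 CPM. The elmo2-/- values of gclm lay inside the wider elmo2+/+ range, and the log2 fold change was 0.028 (SE 0.11, 95% interval -0.21 to 0.27).

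Gstp1 is a cytosolic pi-class glutathione transferase that couples glutathione to electrophiles. Its elmo2-/- samples ran from 168.4 over a median of 199.8 to 270.2 CPM, and its elmo2+/+ samples from 139.6 over 216.1 to 273.1 CPM. The highest pool of each genotype was nearly equal, elmo2-/- replicate 1 and elmo2+/+ replicate 4, and the lowest overall was elmo2+/+ replicate 6. The difference was close to 0, with a log2 fold change of -0.0035 (SE 0.15, 95% interval -0.33 to 0.32). The neighbouring copy gstp1.1 (ENSDARG00000103019) was far lower, with medians of 2.39 CPM in elmo2-/- and 3.70 CPM in elmo2+/+ samples and a 6.50-fold range over all samples, and its log2 fold change was -0.19 (SE 0.52). Estimated counts were whole numbers (tolerance 0.01) in 2 of 12 samples for gstp1 and in 0 of 12 for prdx1, sod1 and cat, so for these genes a part of the reads was assigned by estimation.

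Nqo1 reduces quinones without forming radicals, and Hmox1 opens heme to biliverdin, carbon monoxide and iron. The elmo2-/- samples of nqo1 ran from 33.2 over 39.7 to 48.8 CPM and the elmo2+/+ samples from 27.7 over 39.8 to 46.2 CPM. Medians of nqo1 were nearly the same, and the log2 fold change was 0.044 (SE 0.12, 95% interval -0.22 to 0.31). By contrast hmox1a varied more than any other member. Its elmo2-/- values ran from 3.63 over a median of 8.06 to 16.3 CPM, and its elmo2+/+ values from 2.45 over 4.998 to 13.9 CPM. The highest pools were elmo2-/- replicate 1 (16.3 CPM) and elmo2+/+ replicate 4 (13.9 CPM).

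The log2 fold change of hmox1a was 0.51 (SE 0.41, 95% interval -0.38 to 1.40), the largest among the members and within the spread between pools. It rested on single pools: without elmo2-/- replicate 1 it was 0.23 (adjusted p = 0.930), and without elmo2+/+ replicate 4 it was 0.94 (adjusted p = 0.944 with edgeR). Between the highest and lowest of the 12 samples hmox1a differed 6.67-fold, and its SD within genotypes, 0.82 on the log2 CPM scale, exceeded that of 98.0% of all genes tested.

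Peroxiredoxins reduce hydrogen peroxide through a cysteine that can be over-oxidized, and sulfiredoxin, the product of srxn1, restores it. The PRDX1 identifier ran from 295.0 over a median of 318.7 to 342.3 CPM in elmo2-/- and from 231.5 over 278.9 to 361.2 CPM in elmo2+/+ samples. The elmo2-/- median was higher, but elmo2+/+ replicate 4 was the highest of all, so the genotypes overlapped. PRDX1 had a log2 fold change of 0.16 (SE 0.091, 95% interval -0.031 to 0.36). The prdx1 identifier had 13.3 over 18.1 to 23.7 CPM in elmo2-/- and 15.8 over 18.4 to 25.9 CPM in elmo2+/+ samples. Its log2 fold change was -0.081 (SE 0.16, 95% interval -0.42 to 0.25).

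In srxn1 only 11 to 44 reads were estimated per sample, so counting error adds to the spread between pools. CPM ran from 0.571 over 1.49 to 2.16 in elmo2-/- and from 0.934 over 1.45 to 1.71 in elmo2+/+ samples. Lowest and highest of all were both elmo2-/- samples, replicates 6 and 5. For srxn1 the log2 fold change was -0.018 (SE 0.26, 95% interval -0.58 to 0.54), and counting error and the spread between pools were not separated here.

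Superoxide is dismutated in the cytosol by Sod1 and in mitochondria by Sod2, and catalase clears hydrogen peroxide in peroxisomes. For sod1 the elmo2-/- samples ran from 71.4 over 78.5 to 86.2 CPM and the elmo2+/+ samples from 56.6 over 73.7 to 86.9 CPM. Every elmo2-/- value of sod1 lay inside the elmo2+/+ range, and the log2 fold change was 0.13 (SE 0.093, 95% interval -0.068 to 0.33). Leaving out 1 sample at a time gave 0.072 (without elmo2+/+ replicate 6) to 0.19 (without elmo2+/+ replicate 4). The steadiest member was sod2, with 49.7 over 51.2 to 53.4 CPM in elmo2-/- and 41.4 over 48.1 to 58.1 CPM in elmo2+/+ samples. Its elmo2-/- pools had an SD of 1.29 CPM, against 6.64 CPM in elmo2+/+. In TPM the SDs were closer, 6.65 in elmo2-/- and 9.56 in elmo2+/+, and the difference in spread was not tested. Its log2 fold change was 0.063 (SE 0.079, 95% interval -0.11 to 0.23), with 0.017 to 0.11 when the same 2 samples were left out in turn.

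No genotype difference was detected in catalase either, although its pools differed up to 1.96-fold. The elmo2-/- values of cat ran from 68.4 over 83.9 to 110.1 CPM and the elmo2+/+ values from 63.5 over 84.6 to 124.6 CPM. Both genotypes spanned nearly the same range, with elmo2+/+ replicate 4 highest and elmo2+/+ replicate 6 lowest. Its log2 fold change was -0.034 (SE 0.17, 95% interval -0.39 to 0.32).

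**Figure D2:**
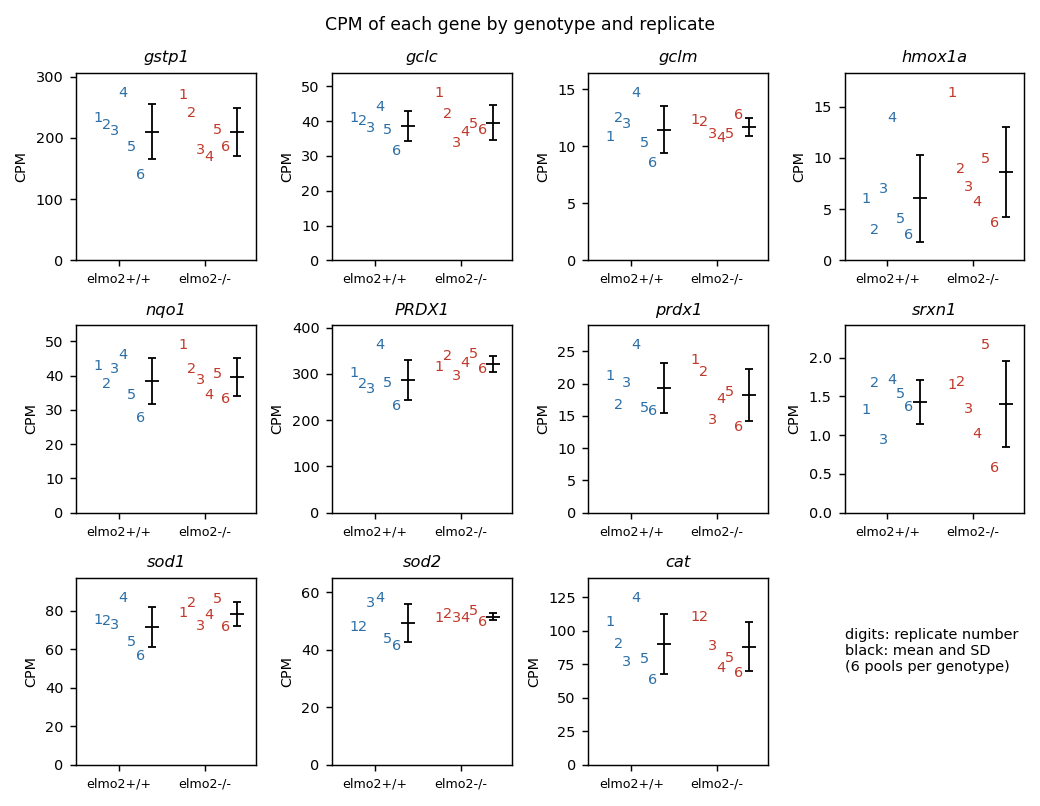
CPM of each identifier in the 12 pools, with the replicate number as the plotting symbol (blue elmo2+/+, red elmo2-/-) and the mean and SD of 6 pools in black. Replicate 4 of elmo2+/+ is at the top of its genotype in every panel, and replicate 6 at the bottom in all but srxn1.

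**Figure D3:**
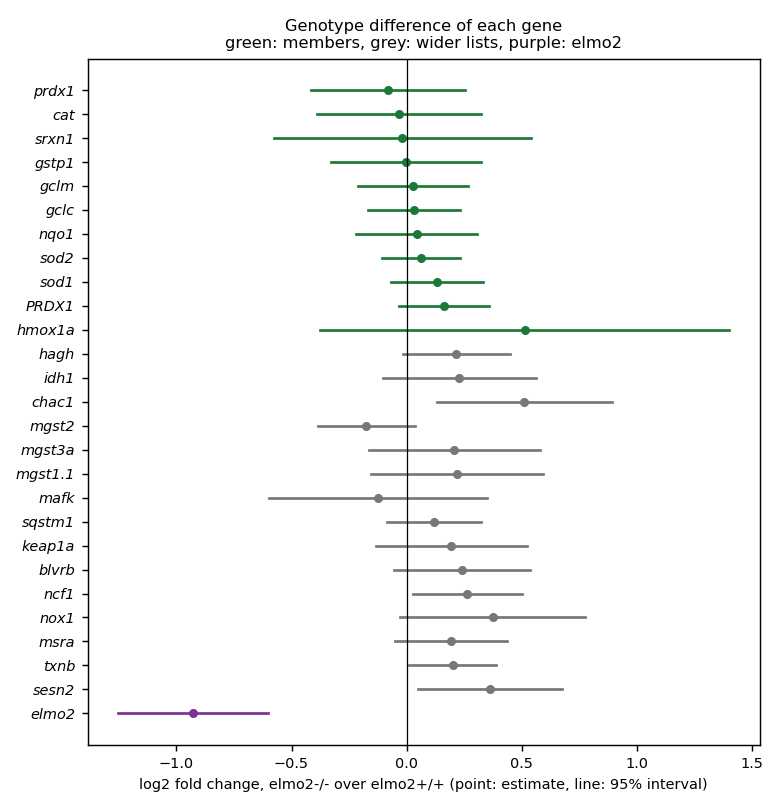
Log2 fold change of elmo2-/- over elmo2+/+ with its 95% interval for the members (green), 15 genes of the wider antioxidant lists (grey) and elmo2 (purple). The interval of every member includes 0, and that of hmox1a (-0.38 to 1.40) is the widest.

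Although the genotypes did not separate, the members rose and fell together from pool to pool. In elmo2+/+, replicate 4 had the highest CPM of its genotype in 11 of 11 members, and replicate 6 the lowest in 10 of 11, with srxn1 lowest in replicate 3. In elmo2-/-, replicate 1 was highest in 6 and replicate 6 lowest in 7 of the 11. These ranks depended on the scale. In TPM, elmo2+/+ replicate 4 was highest only in gclm, hmox1a, PRDX1 and cat, and elmo2+/+ replicate 6 lowest in all but prdx1 and srxn1. For gstp1, elmo2+/+ replicate 1 had 443.9 TPM and replicate 4 had 437.1 TPM. In TPM, elmo2-/- replicate 1 was highest of its genotype in all but srxn1. How often these pools were at the ends over all genes was not counted. On the log2 CPM scale the mean deviation of the members from their own means was 0.40 in elmo2+/+ replicate 4 and 0.33 in elmo2-/- replicate 1, but -0.44 in elmo2+/+ replicate 6 and -0.27 in elmo2-/- replicate 6.

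**Figure D4:**
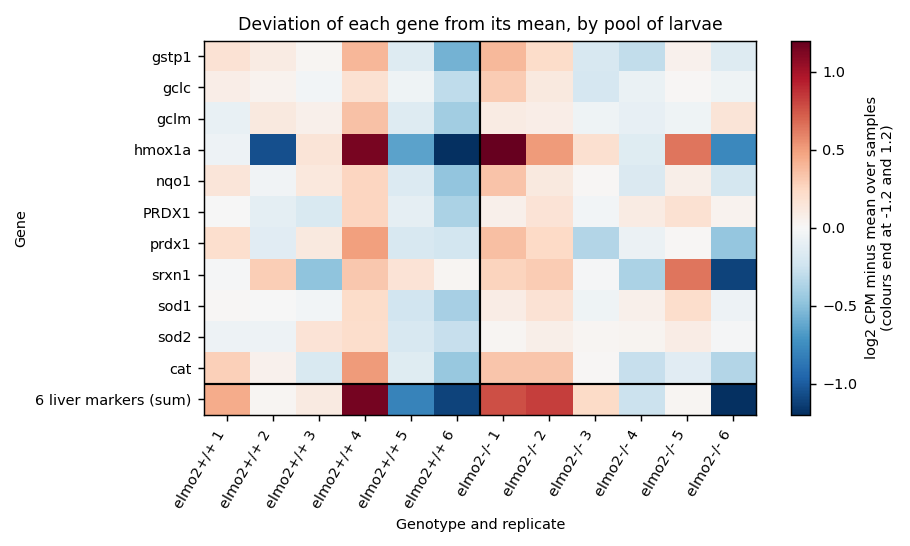
Deviation of log2 CPM from the mean over the 12 samples for each member, and for the sum of 6 liver markers in the bottom row (red above, blue below, colours ending at -1.2 and 1.2). The columns of elmo2+/+ replicate 4 and elmo2-/- replicate 1 are red, and those of elmo2+/+ replicate 6 and elmo2-/- replicate 6 are mostly blue.

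Pearson's r between members over the 12 samples was positive in 54 of 55 pairs, with a median of 0.71, and 38 pairs passed an adjusted permutation p of 0.05 (100000 permutations, two-sided, Benjamini-Hochberg over the 55 pairs). With Spearman's rho 25 pairs passed. The share that would pass among pairs of other genes was not computed. These counts alone therefore do not show that the members move together more than other genes do. Within a sample all members share its depth scaling and the composition of its larvae, and marker sums differed between pools. Closest of all were gstp1 and gclc, with r = 0.95 and rho = 0.98 (permutation p = 1e-05 each, the smallest these permutations can give, adjusted p = 0.00055 each). Without the 2 samples farthest from the median of gstp1, r was 0.91. The pairs gstp1 with nqo1 (r = 0.93, permutation p = 3e-05, rho = 0.85, permutation p = 0.00094) and gstp1 with cat (r = 0.89, permutation p = 8e-05, rho = 0.89, permutation p = 0.00028) followed a similar course, with r = 0.87 and 0.83 without the 2 farthest samples. PRDX1 and sod1 also moved together (r = 0.90, permutation p = 8e-05, rho = 0.85, permutation p = 0.00082, and r = 0.77 without 2 samples).

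By Pearson's r, the sulfiredoxin gene srxn1 followed this pattern least closely. It had only 11 to 44 reads per sample, and counting error by itself lowers r. With rho it was not set apart: rho of srxn1 ran from 0.22 with sod2 to 0.62 with sod1 and cat. That of gclm ran from 0.24 with srxn1 to 0.71 with gstp1. All 38 pairs that passed with r were among the 45 pairs without srxn1. Its r ran from -0.030 with gclm (permutation p = 0.920, rho = 0.24, permutation p = 0.457) to 0.52 with cat (permutation p = 0.0776, rho = 0.62, permutation p = 0.0364, adjusted p = 0.0715 for rho). Across all other genes tested the median r with gstp1 was -0.0099, and 12.5% reached an r of 0.7. Among the other 10 members the median r with gstp1 was 0.78, and 7 reached 0.7.

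The number of pairs that passed depended on the extreme pools. Without elmo2+/+ replicate 4 only 16 pairs passed, and without elmo2+/+ replicate 6 only 14, while leaving out any of the other samples left 29 to 41. When for each pair the 2 samples farthest from the median of the first gene were left out, 7 pairs passed and the median r was 0.49. That step narrows the range of the first gene and leaves fewer samples, which by itself lowers r and the number of pairs passing. The samples left out also differ with the first gene. It therefore cannot show on which samples a pair rests. In that step an r above 0.8 was seen for gstp1 with gclc, nqo1, cat and prdx1. The same held for prdx1 with gclc and nqo1, and for nqo1 with cat. These pairs were named after their values were seen.

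Levels of liver transcripts differed between the same pools. The summed CPM of 6 liver markers (fabp10a, tfa, apoa1b, serpina1, fga and cp, none of them at 0 in any sample) had a lowest, median and highest value of 1370, 3990 and 6454 in elmo2-/-, and of 1683, 3812 and 8043 in elmo2+/+ samples. The genotypes overlapped, the highest sum was that of elmo2+/+ replicate 4 and the lowest that of elmo2-/- replicate 6. In bulk RNA, fewer cells of a type and less RNA per cell cannot be told apart.

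Of the 11 members, 7 reached an r of 0.7 with the log2 liver marker sum, against 11.7% of all genes tested. The closest was cat, with r = 0.91 (permutation p = 8e-05, adjusted p = 0.000495 over the 11 members and this measure) and rho = 0.90 (permutation p = 0.00017). Leaving out elmo2-/- replicate 6 and elmo2+/+ replicate 6, the 2 samples farthest from the median, r was 0.88, and within genotypes it was 0.90 in elmo2-/- and 0.92 in elmo2+/+ samples. For nqo1, r was 0.89 (permutation p = 9e-05) and rho 0.90 (permutation p = 0.00019), with 0.87 without those samples. The r of prdx1 was 0.84 (permutation p = 0.00075, rho = 0.84, permutation p = 0.00104), of gstp1 0.82 (permutation p = 0.00099, rho = 0.79, permutation p = 0.00349) and of hmox1a 0.81 (permutation p = 0.00167, rho = 0.83, permutation p = 0.00157), with 0.78, 0.83 and 0.74 without those 2 samples.

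Weaker relations were seen for sod1 (r = 0.75, permutation p = 0.00501, rho = 0.74, permutation p = 0.00774) and gclc (r = 0.71, permutation p = 0.00958, rho = 0.76, permutation p = 0.00552), with 0.73 and 0.67 without the 2 samples. For sod2, r was 0.66 (permutation p = 0.0187, adjusted p = 0.0257) and rho 0.59 (permutation p = 0.0455, adjusted p = 0.0625), with 0.64 without them. Those of PRDX1 (r = 0.57, permutation p = 0.0532, rho = 0.51, permutation p = 0.0943), srxn1 (r = 0.57, permutation p = 0.0523, rho = 0.48, permutation p = 0.121) and gclm (r = 0.54, permutation p = 0.0664, rho = 0.40, permutation p = 0.199) did not pass, and without the 2 samples they were 0.58, 0.27 and 0.76. In elmo2+/+ samples alone r was between 0.86 and 0.98 for every member but srxn1 (0.14), and in elmo2-/- samples alone it lay between -0.16 and 0.90. The lowest of these was gclm, which had an r of 0.88 in elmo2+/+ but -0.16 in elmo2-/- samples, where replicate 6 combined the lowest liver sum with the highest gclm in CPM. In TPM, gclm was 8.70 in that replicate, below 9.91 in elmo2-/- replicate 1 and 9.06 in elmo2-/- replicate 2. The difference in r between the genotypes was not tested. The part of liver transcripts in the shared movement of the members was not tested.

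Liver was not the only measure that moved with the members. The first principal component of all genes, with 36.7% of the variance, had an r of -0.94 with cat (permutation p = 7e-05, rho = -0.92, permutation p = 0.00011), -0.92 with nqo1 (permutation p = 2e-05, rho = -0.92, permutation p = 0.00013) and -0.91 with gstp1 (permutation p = 1e-04, rho = -0.90, permutation p = 0.00027). Without its 2 farthest samples, replicate 1 of each genotype, these were -0.95, -0.91 and -0.91. The weakest was sod2 (r = -0.50, permutation p = 0.0987, rho = -0.38, permutation p = 0.227, and r = -0.72 without 2 samples), and what this component stands for was not tested. The component was computed from all genes tested, members and liver markers included, so it is not separate from the liver sum. It follows the largest shared variation of all genes by construction, and the share of all genes with such an r was not computed. Its permutation p-values therefore do not single out the members. The pools with the highest and lowest liver sums, elmo2+/+ replicate 4 and elmo2-/- replicate 6, stood at -32.1 and 38.5 on it.

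**Figure D5:**
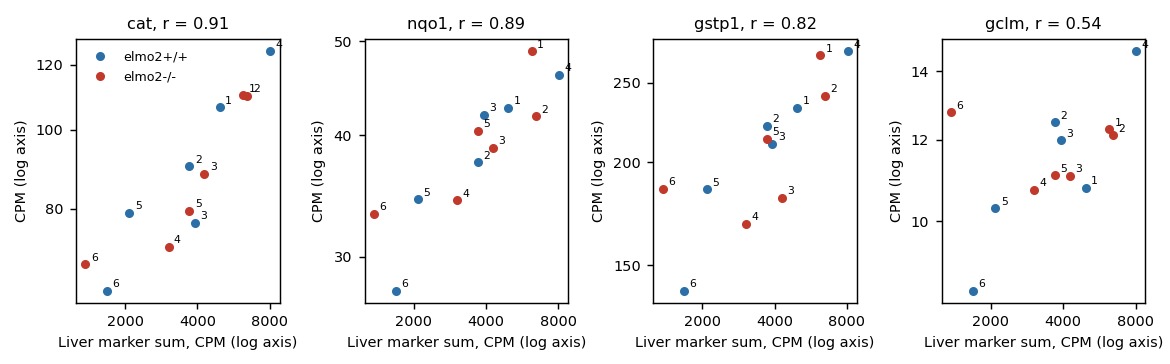
CPM of cat, nqo1, gstp1 and gclm against the summed CPM of 6 liver markers (both log axes) in the 12 pools, with replicate numbers, blue for elmo2+/+ and red for elmo2-/-. Pools with more liver transcripts had more cat (r = 0.91), nqo1 (r = 0.89) and gstp1 (r = 0.82), while gclm (r = 0.54) was high in CPM in elmo2-/- replicate 6, the pool with the lowest liver sum. In TPM, elmo2-/- replicates 1 and 2 were above replicate 6 in gclm.

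Other genes of the response were counted in the same fit. Of 107 listed symbols in 5 lists, 88 were matched and 91 identifiers were tested: 4 were higher in elmo2-/- at an unadjusted p under 0.05, against 2.55% of all genes, and 0 were lower, against 2.13%. None of the 91 passed an adjusted p of 0.05 in edgeR, and 0 separated the genotypes without overlap. Log2 fold changes were above 0 in 6 of 10 Nrf2 regulators, 17 of 25 genes of glutathione synthesis and use and 13 of 20 transferases. In the thioredoxin list 13 of 18 and in the superoxide, iron and heme list 12 of 18 were above 0, against 49.8% of all genes. These directions were not tested.

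Among the regulators of Nrf2, 0 of 10 had an unadjusted p under 0.05, and the median log2 fold change was 0.011. The smallest p values belonged to keap1a, the repressor that binds Nrf2 (log2 fold change 0.19, SE 0.15), sqstm1, the autophagy receptor p62 that can sequester Keap1 (0.12, SE 0.096), and mafk, a small Maf partner (-0.13, SE 0.22). Glutathione transferases beyond gstp1 gave 0 of 20 under 0.05 and a median of 0.053, with mgst2 (-0.17, SE 0.098), mgst1.1 (0.22, SE 0.17) and mgst3a (0.21, SE 0.17), all membrane-bound transferases, as the nearest. The mgst1.1 value belongs to ENSDARG00000032618, 1 of 2 identifiers named MGST1, and which of them is mgst1.1 was not settled. The other, ENSDARG00000022165, had the opposite sign, with a log2 fold change of -0.19.

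For glutathione synthesis and use, the median log2 fold change was 0.035. At an unadjusted p under 0.05, 0 of 25 were lower, against 2.13% of all genes, and 1 was higher, against 2.55%. That gene was chac1, which degrades glutathione and is known as a target of the unfolded protein response in mammals. It ran from 199.5 over 283.2 to 473.4 CPM in elmo2-/- and from 173.3 over 198.9 to 270.2 CPM in elmo2+/+ samples. Its log2 fold change was 0.51 (SE 0.18, 95% interval 0.13 to 0.89, adjusted p = 0.9997 with edgeR), and it was 0.33 without elmo2-/- replicate 3, the highest sample. The glyoxalase hagh (0.22, SE 0.11) and the NADPH source idh1 (0.23, SE 0.16) came next.

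In the thioredoxin and peroxiredoxin list the median log2 fold change was 0.044. At an unadjusted p under 0.05, 2 of 18 were higher, against 2.55% of all genes, and 0 lower, against 2.13%. The 2 were sesn2, a stress-induced sestrin (0.36, SE 0.15), and the thioredoxin txnb (0.20, SE 0.088). Next came msra, which repairs oxidized methionine, with 0.19 (SE 0.11). The superoxide, iron and heme list had a median of 0.035. At an unadjusted p under 0.05, 1 of its 18 was higher and 0 lower, against the same 2.55% and 2.13% of all genes. The higher one was ncf1, the p47phox organizer of the phagocyte NADPH oxidase (0.26, SE 0.11). The oxidase nox1 (0.37, SE 0.19) and the biliverdin reductase blvrb (0.24, SE 0.14) followed. Of the macrophage and neutrophil markers listed beside ncf1, 7 of 10 tested identifiers had a log2 fold change above 0, against 49.8% of all genes, with a median of 0.20. Most of the 10 were identifiers named MFAP4 or MPEG1. At an unadjusted p under 0.05, 0 were higher, against 2.55% of all genes, and 2 were lower, against 2.13%. These were lyz (log2 fold change -0.34) and csf1ra (-0.52), named after their values were seen. The marker sum of this list lay between 25.5 and 55.8 CPM in elmo2-/- and between 30.2 and 54.4 CPM in elmo2+/+ samples. The part of these markers in the ncf1 value was not tested.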

How the data were processed

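RNA of 12 samples was sequenced by BGI on a BGISEQ-500. Trim Galore 0.6.4, kallisto 0.4.6 and build GRCz11 are named in the submitters' processing notes, and how transcripts were summed to genes is not given in the sources used here. The authors deposited estimated counts per gene, which need not be whole and are not scaled between samples. The deposited TPM values were scaled by the authors for transcript length and to the same total in each sample. Symbols came from a table of identifiers, in which 29201 of 32520 had a symbol, and from RefSeq synonyms. No coordinates or sequences are given, since the reference tables used another build.

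Estimated counts were rounded and tested in edgeR 4.0.16 under R 4.3.3 (filterByExpr with a minimum count of 10, TMM, quasi-likelihood test, genotype as the only term), with Benjamini-Hochberg adjustment over 22259 genes. The SE was obtained as the size of the log2 fold change over the root of the F statistic. CPM values are TMM-scaled, and correlations used log2 CPM with a prior count of 2. The biological coefficient of variation was 0.171, so the spread between pools limits most genes more than counting does. On simulated data for this comparison over 22118 genes, 87% of 100 genes with a log2 fold change of 1 were recovered. Of 99 genes with one of 2, 99% were recovered, and 11 unchanged genes were called. The simulation drew genes independently, without the variation shared between pools, and held many changed genes. It therefore does not give the power of this comparison. In the measured data elmo2, at a log2 fold change of -0.93, had an adjusted p of 0.642 in edgeR's quasi-likelihood test.

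Members and lists were chosen with earlier results of these data known, so no test was made over a list. All members are named. Of each wider list the 3 genes with the smallest unadjusted p are named, as would have been any gene with no overlap between genotypes. Replicate numbers come from the labels, which do not say that equal numbers were collected together. Alternatives were DESeq2 1.42.0, limma 3.58.1 on log2(TPM + 1) or log2(TPM + 0.1), other scalings and filters, a replicate block, leaving out samples, and subsets by library number. Samples left out together, matched subsets and a liver covariate were added after the data were examined.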

Additional observations from a re-analysis of the deposited data

Results flagged for a closer look

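Among 56 comparisons of a gene within a genotype, 1 sample lay far from the others of its group by Dixon's criterion, which chance alone meets in about 5% of groups. It was the chac1 value of elmo2-/- replicate 3, at 473.4 CPM, with the nearest other elmo2-/- sample at 296.7 CPM and a gap of 0.645 of the group's range, above the critical value for 6 samples. No member of the oxidative stress and glutathione group had such a sample.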

How the results depend on the processing

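Over 26 settings the 11 members gave 286 fold changes, of which 0 passed an adjusted p of 0.05 (lowest 0.343), 245 kept their direction and 41, of members close to 0, changed it. An unadjusted p under 0.05 was reached by 10 of the 286, all above 0: PRDX1 with the replicate block, hmox1a, PRDX1 and sod1 without elmo2+/+ replicate 4, hmox1a and PRDX1 with the liver covariate, and hmox1a, PRDX1, sod1 and sod2 for library numbers 7 and 8 against elmo2+/+ replicates 5 and 6. The number of genes called in edgeR, 0 (1041 with an unadjusted p under 0.05), was 3 with DESeq2 (elmo2, si:ch211-171h4.7 and ENSDARG00000100939; 970 unadjusted), 1 with limma on log2(TPM + 1) and 1 on log2(TPM + 0.1), elmo2 in both, 3 with the liver covariate (elmo2, lgals3b and IGFBP1) and 2 for library numbers 7 and 8 against elmo2+/+ replicates 5 and 6 (si:ch211-121a2.2 and tnfrsf14). Names of these genes were chosen after their values were seen. Leaving out 1 sample at a time, the number of genes called stayed at 0. For library numbers 7 and 8 against elmo2+/+ replicates 5 and 6, the median log2 fold change of the members was 0.27, against 0.031 in all samples. Only 2 samples per genotype enter this subset, and no label matches them to each other. Mean deviations of the members were -0.17 and -0.44 in these controls, the lowest of their genotype, and 0.16 and -0.27 in the elmo2-/- samples. The cause of the higher median was not tested. Leaving out 1 sample at a time gave medians of -0.029 to 0.10 and 14 to 41 correlated pairs. The count of pairs was 7 without the 2 farthest samples, where fewer samples remain.

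Reversed log2 fold changes were, with limma, -0.014 for gclc on log2(TPM + 1) and -0.015 on log2(TPM + 0.1). With library numbers 13 to 16 only they were 0.031 for gstp1, 0.0044 for prdx1, 0.077 for cat, 0.013 for mafk and 0.096 for gstp1.1, and with 7 and 8 only -0.014 for gclc, -0.060 for nqo1, -0.096 for sqstm1 and -0.15 for mgst1.1. Numbers 13 to 16 against elmo2+/+ replicates 1 to 4 gave -0.028 for gclc, -0.11 for gclm, -0.043 for nqo1, 0.0067 for srxn1, -0.035 for sod2 and 0.066 for mafk. Numbers 7 and 8 against replicates 5 and 6 gave 0.30 for gstp1, 0.0024 for prdx1, 0.053 for cat and -0.11 for sqstm1. Leaving out 1 sample at a time, the ranges were -0.12 to 0.079 for cat, -0.032 to 0.072 for gclc, -0.044 to 0.11 for gclm, -0.098 to 0.083 for gstp1, -0.70 to 0.13 for gstp1.1, -0.035 to 0.10 for nqo1, -0.17 to 0.019 for prdx1 and -0.18 to 0.14 for srxn1. Without replicate 1 of both genotypes gclc was -0.014 and gclm -0.0040.

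Same-numbered samples did not deviate together throughout (r from -0.25 to 0.62, mean 0.16), with the highest r in replicates 1 (0.62) and 6 (0.46). These values do not settle whether equal numbers were collected together. No count expected by chance was computed for the 4 of 12 samples that correlated best with their own number. Blocking on that number, 0 genes passed (1445 unadjusted), gstp1 was 0.0077, PRDX1 0.17 (adjusted p = 0.761 with edgeR) and elmo2 -0.93 (adjusted p = 0.0770), and no call at an adjusted p of 0.05 changed. With the liver covariate hmox1a was 0.52 (adjusted p = 0.624 with edgeR) and elmo2 -0.91 (adjusted p = 0.00993).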

Other observations

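Glutathione transferases also varied with the liver marker sum: 11 of the 20 tested identifiers reached an r of 0.7 over the 12 samples, with a median r of 0.71, against 11.7% and a median of -0.0051 over all genes tested. Of the other lists, 4 of 10 Nrf2 regulators, 6 of 25 genes of glutathione synthesis and use, 6 of 18 of the thioredoxin and peroxiredoxin list and 4 of 18 of the superoxide, iron and heme list reached it. Summed neuron markers were lowest in elmo2-/- replicate 1 (1221 CPM), elmo2+/+ replicate 1 (1269 CPM) and elmo2+/+ replicate 4 (1309 CPM), and highest in elmo2-/- replicate 6 (1738 CPM) and elmo2+/+ replicate 6 (1782 CPM). The mean deviation of the members was 0.061 in elmo2+/+ replicate 1, close to 0. Over the 12 samples that mean had an r of 0.92 with the liver, 0.71 with the intestine, -0.71 with the retina and lens and -0.84 with the neuron marker sum. These values describe the pools and were not tested.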
